A study of Mus musculus with 14 samples.

Results

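Interferon-stimulated genes are the transcripts that cells raise when interferon binds its receptors. A list of 35 such mouse genes was followed in whole lungs, and its genes were found as the array's probe sets, each a set of probes against a transcript, annotated with exactly 1 gene symbol of the list. That rule found 53 of the 45101 probe sets on the array, and these measured 33 of the 35 genes. Isg15 lay only on a probe set with several symbols and Ifi44 had none under that symbol, so neither was analysed here. Oas3, at 37.1 to 48.6 signal units over all arrays, and Mx1, at 24.4 to 36.0, lay below the level required for a test. The remaining 31 listed genes were tested among 12985 genes in all.

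Whole lungs of 20 weeks old C57BL/6 mice gave total RNA, which was hybridised to 14 Affymetrix arrays, 1 per sample. By their labels, 5 samples came from CD151KO mice, 5 from CD9KO mice and 4 from wild type mice, the last numbered 1, 3, 4 and 5. CD151 and CD9 are tetraspanins, membrane proteins that gather integrins and other proteins into complexes, and the title of the study concerns CD151, the integrity of the epithelium and pulmonary fibrosis. No treatment or infection is named in the labels, which give the genotype of each group but not the allele, and do not say whether samples of a group were separate animals or pools. The p-values therefore cover the spread among samples alone, and part or all of that spread may be technical. Each comparison asked whether these genes differed in CD151KO lungs from wild type, in CD9KO lungs from wild type, or between the knockouts. In bulk RNA of a whole organ, fewer cells of a type and less RNA per cell cannot be told apart.

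Type I interferons bind a receptor whose kinases activate STAT2, which with IRF9 acts on the interferon-stimulated response element in target promoters. Interferon gamma uses another receptor and acts through another promoter element, the gamma-activated site. The proteins made block viral entry, translation and replication, sense viral RNA, or cut and carry peptides for MHC class I molecules. In the lung both epithelium and immune cells respond, and a low tonic level is present without infection.

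Promoter windows from RefSeq (build GRCm38.p6), 250 bases before to 50 after each gene's annotated start, were available for 27 of the 35 genes. The core of the interferon-stimulated response element, GAAANNGAA on either strand, was found in a window of 16 of these 27 genes (59.3%), and of 2638 of all 27025 genes (9.76%); by window, in 17 of 34 (50%) and in 2812 of all 32851 (8.56%). The core of the gamma-activated site, TTCNNNGAA, which reads the same on both strands, was found for 9 of the 27 genes (33.3%) and 2582 of all genes (9.55%), and in 9 of the 34 windows (26.5%) and 2726 of all windows (8.30%). A base could count in both motifs, and a match describes letters, not a bound site. The windows shown belong to Eif2ak2, the gene called between the knockouts, and to Rsad2, Gbp3 and Gbp2, whose levels were highest on 1 array relative to the others; capitals mark the matches, 5′ to 3′ on the strand of the gene, and a match on the opposite strand reads TTCNNTTTC.
Eif2ak2, chr17:78882523-78882822, minus strand: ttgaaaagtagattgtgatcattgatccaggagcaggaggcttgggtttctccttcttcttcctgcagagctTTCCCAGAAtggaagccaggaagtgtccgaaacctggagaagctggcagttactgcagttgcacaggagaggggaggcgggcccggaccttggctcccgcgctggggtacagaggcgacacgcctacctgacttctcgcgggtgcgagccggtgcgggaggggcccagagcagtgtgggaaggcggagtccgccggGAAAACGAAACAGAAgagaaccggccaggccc
Rsad2, chr12:26456403-26456702, minus strand: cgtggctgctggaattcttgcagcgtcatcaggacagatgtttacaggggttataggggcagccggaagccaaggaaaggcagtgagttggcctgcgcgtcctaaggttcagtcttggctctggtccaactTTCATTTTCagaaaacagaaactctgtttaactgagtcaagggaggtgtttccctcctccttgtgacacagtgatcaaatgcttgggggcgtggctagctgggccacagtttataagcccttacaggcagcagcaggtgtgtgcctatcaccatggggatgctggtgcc
Gbp3, chr3:142559794-142560093, plus strand: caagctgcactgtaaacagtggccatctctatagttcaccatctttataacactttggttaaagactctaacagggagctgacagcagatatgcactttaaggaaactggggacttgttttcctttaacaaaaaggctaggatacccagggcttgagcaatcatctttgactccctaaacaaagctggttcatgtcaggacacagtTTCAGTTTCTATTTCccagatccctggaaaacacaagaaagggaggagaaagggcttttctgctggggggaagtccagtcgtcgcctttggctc
Gbp2, chr3:142620413-142620712, plus strand: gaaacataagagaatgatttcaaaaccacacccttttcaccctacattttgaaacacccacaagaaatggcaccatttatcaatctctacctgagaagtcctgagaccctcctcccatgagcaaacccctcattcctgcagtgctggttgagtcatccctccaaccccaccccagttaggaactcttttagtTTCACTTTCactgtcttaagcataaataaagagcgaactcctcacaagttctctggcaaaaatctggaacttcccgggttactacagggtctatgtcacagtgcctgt
Eif2ak2 had 2 overlapping response element cores, which began 18 and 24 bases after the start, and a gamma-activated core 178 bases before it. Rsad2 had 1 response element core, 119 bases before its start. Gbp3 had 2 overlapping cores, 44 and 38 bases before its start, and a second Gbp3 window for another start had none. Gbp2 had 1 core, 58 bases before its start. The windows of Tap1 and Psmb9, divergent neighbours, shared 275 bases and held neither motif.

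Deposited signals were normalized and linear, with array medians of 84.1 to 86.2. Pairwise correlations of log2 values between arrays were 0.9906 to 0.9985 over every probe set and 0.9809 to 0.9979 over the 12985 genes tested. Cd151 averaged 1058 ± 17.7 in CD151KO lungs, against 5330 ± 372 in wild type (SD, n = 5 and 4), and Cd9 averaged 667 ± 52.3 in CD9KO lungs, against 8096 ± 69.4 in wild type (SD, n = 5 and 4). Alveolar markers, such as those of type 2 cells with summed signals of 83572 to 89352 on every array, fitted the labelled tissue. On the first principal component (37.5% of the variance) CD151KO number 1 and wild type number 1 lay farthest to one side, at -17.2 and -18.5, with the other arrays between -8.01 and 13.4. CD9KO number 2 lay inside that range, at 7.46, and its ratio of 3′ to 5′ Gapdh signal, a sign of RNA integrity, was 0.884, against 0.831 to 0.886 on the other arrays. Precision is limited by how many arrays each group has.

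One lung stood apart on the interferon-stimulated genes. CD9KO number 2 was the highest of the 14 arrays at 20 of the 31 tested genes (64.5%) and the lowest at 0, while over all 12985 genes it was the highest at 739 (5.69%). Averaged over the 31 genes it lay 0.37 above the mean of the 14 arrays on the log2 scale, and the other arrays lay between -0.16 and 0.17, with wild type number 1 at the upper end. Its signal was at least 1.5 times the median of the other 13 arrays at 7 of the 31 genes (22.6%) and at 49 of all genes (0.377%); each of the others passed that ratio at 0 or 1 of the 31. The array was singled out after its values were seen, so these counts carry no test, and each result below is given with and without it where it matters. Wild type number 1 was the highest at 5 of the 31 (16.1%) and at 21.4% of all genes.

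**Figure D1:**
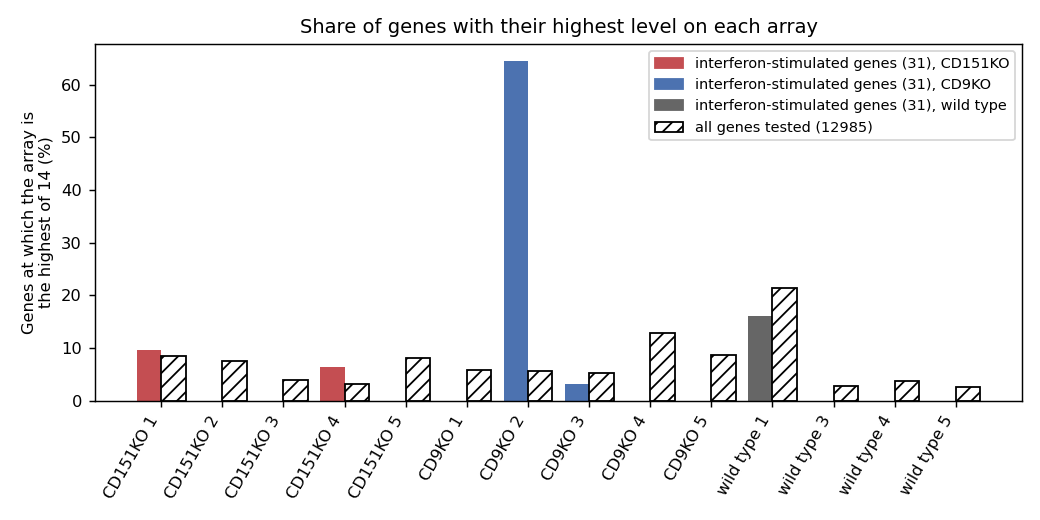
Share of genes (percent, vertical axis) at which each of the 14 arrays had the highest signal, for the 31 interferon-stimulated genes tested (filled bars, coloured by group) and for all 12985 genes tested (hatched bars). CD9KO number 2 reaches 64.5% of the interferon-stimulated genes and 5.69% of all genes.

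Between CD151KO and wild type lungs, 0 of the 31 interferon-stimulated genes passed the test, limma at a Benjamini-Hochberg adjusted p under 0.05 over all 12985 genes, which called 0.778% of all genes (101). At an unadjusted p under 0.05 there was 1 gene of the 31 (3.23%), against 1446 of all genes (11.1%). Their median log2 difference was -0.016, beside 0.0079 over all genes, with a range of -0.34 to 0.12. For 26 of the 31 the 95% interval of the difference lay within 1.5-fold in either direction, against 12748 of all 12985 genes. The listed genes had larger SEs, with a median of 0.095 against 0.059 over all genes. These SEs use the spread between samples pooled over all 3 groups, so CD9KO number 2 entered them although it is in neither group compared here. The count of intervals within 1.5-fold was not repeated without that array.

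Between CD9KO and wild type lungs, likewise 0 of the 31 passed the limma test, which called 5.51% of all genes (715). At an unadjusted p under 0.05 there were 2 of the 31 (6.45%), against 3304 of all genes (25.4%). The median was -0.0096, beside 0.0037 over all genes, with a range of -0.30 to 0.25. Of the 31 intervals 29 lay within 1.5-fold, against 12534 of all 12985 genes.

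Between CD151KO and CD9KO lungs 1 of the 31 passed, Eif2ak2, where the test called 10.1% of all genes (1313). That share of the listed genes, 3.23%, was below the share over all genes. At an unadjusted p under 0.05 there were 6 of the 31 (19.4%), against 3588 of all genes (27.6%), and the median was 0.0034, beside 0.0016 over all genes. The spread of these genes between samples of a group was larger than usual: their median residual SD was 0.156 on the log2 scale, against 0.0882 over all genes, and 0.125 against 0.0877 without CD9KO number 2. These 3 comparisons share groups and are not independent of each other.

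**Figure D2:**
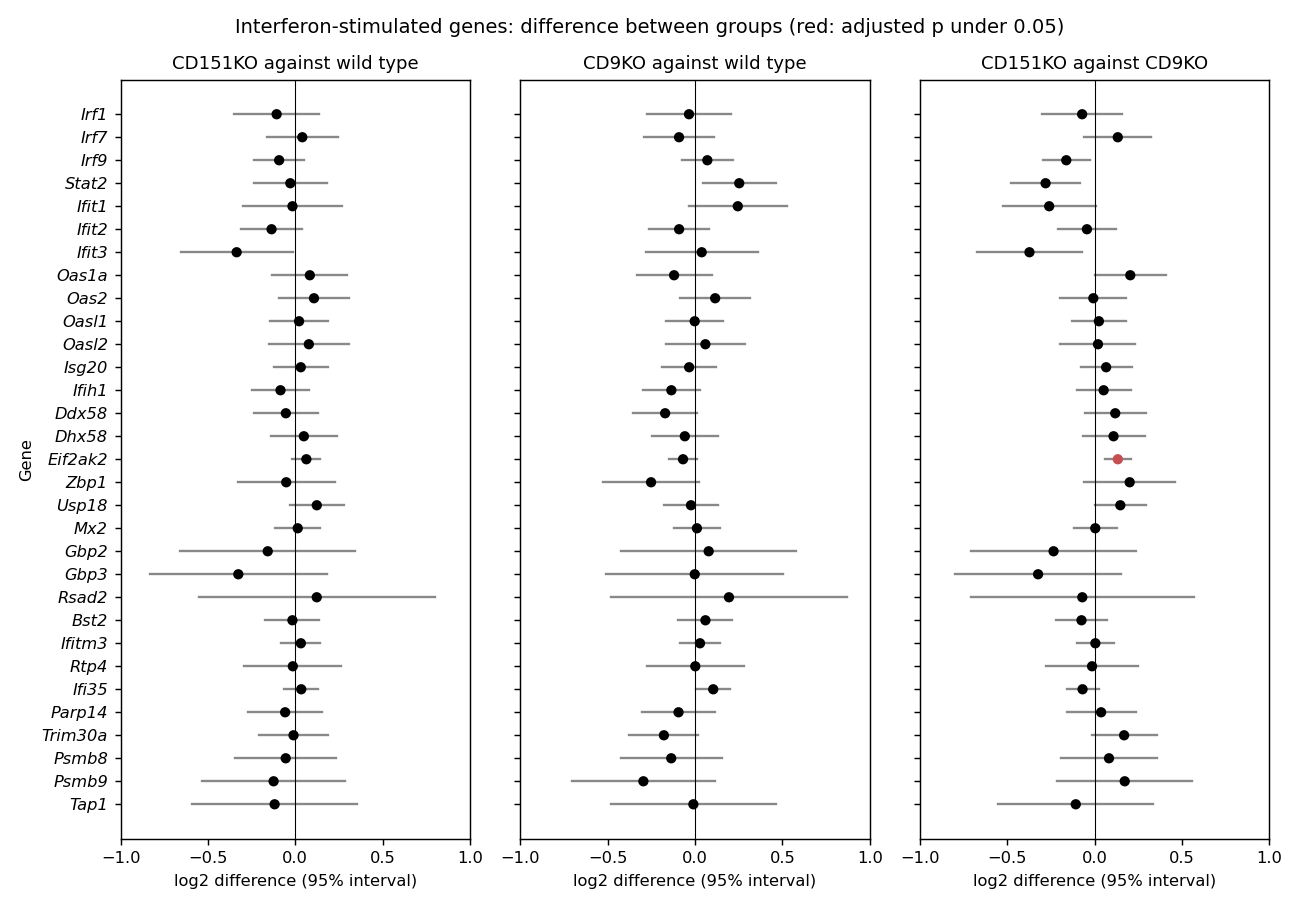
Log2 difference (horizontal axis) of each of the 31 interferon-stimulated genes tested, with its 95% interval, for CD151KO against wild type, CD9KO against wild type and CD151KO against CD9KO; positive values are higher in the first group named, and red marks an adjusted p under 0.05. Eif2ak2 between CD151KO and CD9KO is the 1 red point, and the widest intervals belong to Rsad2, Gbp3, Gbp2 and Tap1.

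CD9KO number 2 was set aside because it was highest at 20 of these same 31 genes. Leaving it out therefore had to lower the CD9KO means of those 20 genes, and it narrowed the spread of the list, so the shares and calls that follow are a description and their distance from those over all genes supports nothing. Of the 31 genes, 25 then lay below 0 in CD9KO against wild type, against 18 with all arrays, and the median was -0.11. An unadjusted p under 0.05 was reached by 12 of the 31 (38.7%), against 25.5% of all genes, and 1 gene passed the adjusted test, Zbp1, where 4.94% of all genes were called. Between CD151KO and CD9KO 4 of the 31 passed (12.9%), Eif2ak2, Irf7, Oas1a and Zbp1, all higher in CD151KO, where 9.55% of all genes were called, and the median was 0.10. Against wild type CD151KO lungs again had 0 called in limma, with 2 at an unadjusted p under 0.05, where 0.701% of all genes were called.

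The listed transcription factors relay or amplify the interferon signal. IRF1 is itself induced by interferon gamma and switches on antigen processing genes, IRF7 drives the making of type I interferon, and STAT2 and IRF9 act together on the response element. None of the 4 passed the test in any comparison with all arrays, with smallest adjusted p-values of 0.666, 0.122 and 0.0649 for CD151KO against wild type, CD9KO against wild type and CD151KO against CD9KO. All 4 had their highest signal on CD9KO number 2.

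Stat2 had 87.5, 89.9, 103, 94.0 and 113 signal units in CD151KO lungs, 109, 164, 118, 110 and 113 in CD9KO lungs, and 91.4, 97.6, 101 and 108 in wild type lungs. All 5 CD9KO lungs were above all 4 wild type lungs, with CD9KO number 2 the highest, while 1 CD151KO lung reached into the CD9KO range. The log2 difference was 0.25 (SE 0.098) for CD9KO against wild type, with an adjusted p of 0.122 in limma, and 0.16 with an adjusted p of 0.174 without CD9KO number 2. For CD151KO against CD9KO it was -0.28 (SE 0.092), with a limma adjusted p of 0.0649. Without CD9KO number 2 it was -0.18 (adjusted p = 0.0881), and without CD151KO number 5 it was -0.33 (adjusted p = 0.0404). CD151KO number 5 was the lung that reached into the CD9KO range, so leaving it out had to widen the difference. Of 25 alternatives 2 called Stat2 in this comparison and 23 did not. A second Stat2 probe set gave 153 on CD9KO number 2 and 92.8 to 129 on the other 13 arrays.

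Irf9 had 423, 401, 476, 461 and 447 in CD151KO lungs, 464, 589, 501, 473 and 460 in CD9KO lungs, and 457, 477, 492 and 459 in wild type lungs. The groups overlapped. CD151KO differed from CD9KO by -0.16 on the log2 scale (SE 0.064, limma adjusted p = 0.113), and -0.10 without CD9KO number 2. Irf1 had 2071 on CD9KO number 2, and the other 13 arrays lay between 1164 and 1541.

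Irf7 is also one of the listed genes nearest to Cd151, on chromosome 7 with 14 protein-coding genes between them. It had 161, 143, 155, 155 and 151 in CD151KO lungs, 128, 183, 138, 128 and 122 in CD9KO lungs, and 177, 141, 140 and 139 in wild type lungs. One CD9KO and one wild type lung, number 2 and number 1, stood above their groups. The difference was 0.04 (SE 0.095, limma adjusted p = 0.922) for CD151KO against wild type on the log2 scale. Between the knockouts it was 0.13 (limma adjusted p = 0.361) with all arrays and 0.22 (adjusted p = 0.0455) without CD9KO number 2, where the groups no longer overlapped. That array was the highest for Irf7, so leaving it out had to raise this difference, and the second p-value supports nothing.

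The IFIT proteins bind foreign RNA and block its translation, and are among the genes most strongly induced by type I interferon. None of the 3 had its highest signal on CD9KO number 2. Ifit3 had 768, 1004, 763, 679 and 645 in CD151KO lungs, 773, 1044, 1157, 1139 and 907 in CD9KO lungs, and 1286, 883, 794 and 966 in wild type lungs. Apart from number 2, every CD151KO lung was below every CD9KO and every wild type lung. With all arrays, Ifit3 had the smallest unadjusted limma p of the 31 for CD151KO against wild type (0.0409), and did not pass after adjustment. The log2 difference was -0.34 (SE 0.15, 95% interval -0.66 to -0.016, limma adjusted p = 0.410). Against CD9KO it was -0.37 (SE 0.14, adjusted p = 0.102).

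Ifit2 had 477, 391, 421, 406 and 384 in CD151KO lungs, 416, 408, 473, 425 and 424 in CD9KO lungs, and 531, 497, 410 and 404 in wild type lungs. Wild type numbers 1 and 3 were the highest, and the groups overlapped. CD151KO differed from wild type by -0.14 on the log2 scale (SE 0.081, limma adjusted p = 0.573). Ifit1 had its highest values in CD9KO numbers 3 and 2, at 714 and 688, and the other 12 arrays lay between 413 and 577.

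The OAS proteins make a short adenylate that activates the RNA-cutting enzyme RNase L, OASL1 and OASL2 are related proteins, and ISG20 is an RNA exonuclease. None of the 5 tested passed in any comparison, and the log2 differences ran from 0.022 to 0.11 for CD151KO against wild type, from -0.12 to 0.12 for CD9KO against wild type, and from -0.0083 to 0.20 for CD151KO against CD9KO. The highest array was CD9KO number 2 for Oas1a, Oas2, Oasl2 and Isg20, but not for Oasl1.

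Oas1a had 263, 259, 277, 276 and 253 in CD151KO lungs, 200, 306, 222, 209 and 218 in CD9KO lungs, and 266, 276, 252 and 209 in wild type lungs. Apart from number 2, every CD9KO lung was below every CD151KO lung. Between CD151KO and CD9KO the log2 difference was 0.20 (SE 0.095, limma adjusted p = 0.179), and without CD9KO number 2 it was 0.30 (SE 0.066, adjusted p = 0.0151). Number 2 was the highest array for Oas1a, so its removal had to raise the difference, and the second p-value is a description only. Oas1a belongs to a cluster of closely related copies, so its probes may also read its neighbours.

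MDA5 (Ifih1), RIG-I (Ddx58) and LGP2 (Dhx58) sense viral RNA in the cytosol, PKR (Eif2ak2) is a kinase that stops translation on binding double-stranded RNA, and ZBP1 senses Z-form nucleic acid. CD9KO number 2 lay inside the range of the others at 4 of these 5 genes and was the highest for Zbp1; its ratio to the median of the other 13 arrays was 1.06 for Ifih1, 1.01 for Ddx58, 1.02 for Dhx58 and 0.946 for Eif2ak2.

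Eif2ak2 had 151, 155, 152, 156 and 152 in CD151KO lungs, 135, 139, 137, 146 and 135 in CD9KO lungs, and 142, 151, 144 and 147 in wild type lungs. Every CD151KO lung was above every CD9KO lung, and the wild type lungs lay between and overlapped both. Eif2ak2 was higher in CD151KO than in CD9KO by 0.13 on the log2 scale (SE 0.035, 95% interval 0.057 to 0.21), or 1.10-fold, with a limma adjusted p of 0.0303. The call rests on a small difference with a small spread: it was lost in 9 of 26 alternatives, 7 of which left out 1 array (CD151KO number 1, 2, 3 or 4, or CD9KO number 1, 3 or 5; adjusted p 0.0513 to 0.0752). A second Eif2ak2 probe set gave 133 to 139 in CD151KO lungs and 118 to 155 in CD9KO lungs, which overlapped, and another gave 89.9 to 116 in CD151KO lungs, 86.8 to 94.7 in CD9KO lungs and 98.6 to 129 in wild type lungs. With every probe set tested on its own, the last of these was lower in CD9KO than in wild type (log2 difference -0.27, limma adjusted p = 0.0383).

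Zbp1 had 156, 131, 165, 145 and 123 in CD151KO lungs, 106, 184, 121, 107 and 110 in CD9KO lungs, and 167, 160, 143 and 130 in wild type lungs. Number 2 was the highest of all arrays, and the other 4 CD9KO lungs were the lowest. The log2 difference of CD9KO against wild type was -0.25 (SE 0.13, limma adjusted p = 0.235), and without number 2 it was -0.38 (SE 0.088, adjusted p = 0.0304). Removing the highest array had to lower the CD9KO mean, so the second p-value is a description only. A second Zbp1 probe set gave 88.4 ± 8.07 in the 4 remaining CD9KO lungs and 94.3 ± 6.35 in the 4 wild type lungs (SD), a smaller difference in the same direction that was not tested without number 2.

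Ddx58 had 554, 475, 481, 416 and 430 in CD151KO lungs, 419, 453, 450, 395 and 441 in CD9KO lungs, and 589, 471, 448 and 454 in wild type lungs. CD151KO number 1 and wild type number 1 were the highest, and the rest overlapped. Between CD9KO and wild type the log2 difference was -0.17 (SE 0.086, limma adjusted p = 0.224). The other 2 Ddx58 probe sets differed in the opposite direction, by 0.10 and 0.052 in the fit of every probe set, and with a gene's probe sets averaged the difference was -0.0054. CD151KO number 1 and wild type number 1 were also the highest for Ifih1, at 654 in CD151KO number 1 and 733 in wild type number 1.

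USP18 removes ISG15 from proteins and damps signalling at the type I interferon receptor. Usp18 had 513, 481, 471, 518 and 509 in CD151KO lungs, 402, 505, 480, 476 and 391 in CD9KO lungs, and 501, 461, 438 and 427 in wild type lungs. The groups overlapped, with CD9KO numbers 1 and 5 the lowest. The log2 difference was 0.12 (SE 0.072, limma adjusted p = 0.564) for CD151KO against wild type and 0.15 (SE 0.068, adjusted p = 0.178) for CD151KO against CD9KO. Usp18 lies on chromosome 6, as does Cd9, with 85 protein-coding genes between them.

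Among the GTPases CD9KO number 2 had large excesses over the other arrays for Gbp2 and Gbp3, but not for Mx2. GBP2 and GBP3 are guanylate-binding proteins, induced by interferon gamma, that coat the vacuoles of intracellular pathogens, and MX2 belongs to the dynamin-like MX family of antiviral GTPases. Gbp2 had 1393, 1396, 1582, 1328 and 1141 in CD151KO lungs, 1291, 3409, 1713, 1217 and 1158 in CD9KO lungs, and 1642, 1416, 1376 and 1667 in wild type lungs. CD9KO number 2 was 2.45 times the median of the other 13 arrays, while the other 4 CD9KO lungs overlapped both groups. A second Gbp2 probe set gave 2109 on that array, against 706 to 1295 on the others.

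Gbp3 had 588, 519, 610, 559 and 486 in CD151KO lungs, 539, 1517, 673, 544 and 532 in CD9KO lungs, and 882, 649, 602 and 674 in wild type lungs. Again CD9KO number 2 was far above, at 2.58 times the median of the other arrays. The log2 difference of CD9KO against wild type was -0.0016 (95% interval -0.51 to 0.50) with all arrays. Without that array, whose removal had to lower the CD9KO mean, it was -0.28 (-0.51 to -0.046, limma adjusted p = 0.127). For CD151KO against wild type it was -0.33 (-0.83 to 0.18, limma adjusted p = 0.664) with all arrays. The interval narrowed to -0.55 to -0.10 without CD9KO number 2 (adjusted p = 0.223). Mx2 lay between 72.3 and 94.5 on all arrays, and its differences were 0.014 or smaller in size in every comparison.

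**Figure D3:**
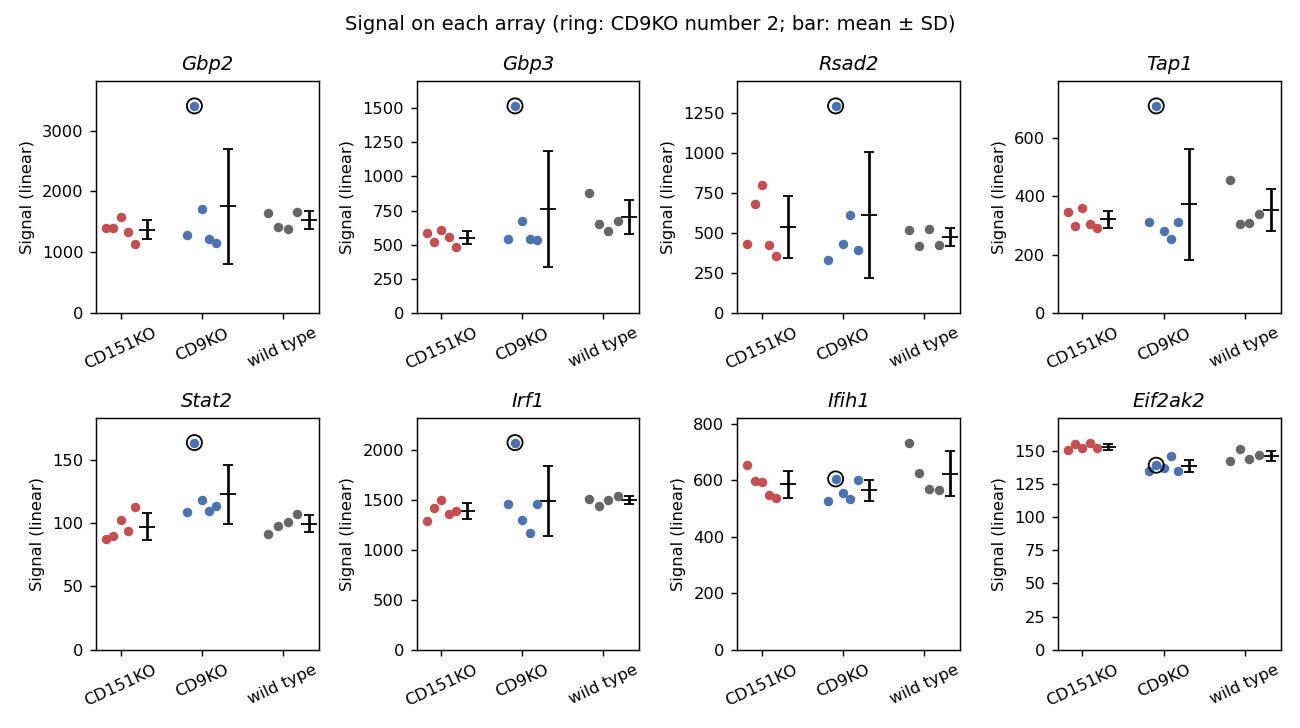
Deposited linear signal (vertical axis) of 8 interferon-stimulated genes on each array, by group (CD151KO, CD9KO, wild type); points are arrays, the ring marks CD9KO number 2, and the bar beside each group is its mean ± SD. CD9KO number 2 stands above every other array for Gbp2, Gbp3, Rsad2, Tap1, Stat2 and Irf1, and inside the range of the other arrays for Ifih1 and Eif2ak2.

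Among the membrane and other antiviral proteins, viperin (Rsad2) makes a chain-terminating nucleotide, tetherin (Bst2) holds budding virus at the surface, and IFITM3 blocks fusion in endosomes. CD9KO number 2 was the highest array for 6 of the 7 tested, all but Trim30a. None of the 7 passed in any comparison, with smallest adjusted p-values in limma of 0.842, 0.168 and 0.224 for CD151KO against wild type, CD9KO against wild type and CD151KO against CD9KO.

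Rsad2 had 432, 684, 799, 422 and 354 in CD151KO lungs, 334, 1295, 430, 613 and 397 in CD9KO lungs, and 517, 419, 525 and 428 in wild type lungs. CD9KO number 2 was 3.01 times the median of the other arrays, and CD151KO numbers 3 and 2 came next. Both further probe sets of Rsad2 were highest on CD9KO number 2 and next highest on CD151KO number 3, at 465 and 428 on CD9KO number 2, against 114 to 269 and 111 to 243 on the others. With this spread the 95% interval of CD9KO against wild type ran from -0.48 to 0.87 on the log2 scale.

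Ifi35, a cytosolic protein induced by interferon, had 2618, 2585, 2781, 2722 and 2744 in CD151KO lungs, 2665, 3030, 2844, 2885 and 2710 in CD9KO lungs, and 2848, 2614, 2459 and 2598 in wild type lungs. Wild type number 1 was the only wild type lung above any CD9KO lung. The log2 difference of CD9KO against wild type was 0.10 (SE 0.046, limma adjusted p = 0.168). Of the other 2 Ifi35 probe sets, 1 gave 641 to 755 in CD9KO lungs and 601 to 633 in wild type lungs, with no overlap, and it was higher in CD9KO (log2 difference 0.16, adjusted p = 0.0375) when every probe set was tested on its own, while the other differed by 0.016.

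Ifitm3, with 28 protein-coding genes between it and Cd151 on chromosome 7, had 8280, 7983, 8618, 8013 and 8029 in CD151KO lungs, 7966, 9332, 8486, 7561 and 7595 in CD9KO lungs, and 8310, 7973, 7674 and 8063 in wild type lungs. The groups overlapped throughout, with CD9KO number 2 the highest. For CD151KO against wild type the log2 difference was 0.03 (SE 0.053, 95% interval -0.080 to 0.14, limma adjusted p = 0.881).

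Bst2, Rtp4 and Parp14 had 1074, 1453 and 599 on CD9KO number 2, against 800.3 to 955, 794 to 1175 and 358 to 516 on the other 13 arrays. Trim30a had its highest signals on CD151KO number 1 and wild type number 1, at 694 and 732.

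Antigen processing was covered by 3 listed genes: PSMB8 and PSMB9 replace catalytic subunits of the proteasome, and TAP1 forms, with TAP2, the pump that carries peptides to MHC class I molecules. Psmb9 had 903, 801, 971, 716 and 666 in CD151KO lungs, 684, 1217, 615, 563 and 631 in CD9KO lungs, and 1163, 870, 732 and 799 in wild type lungs. CD9KO number 2 and wild type number 1 were the highest, and without number 2 every CD9KO lung was below every wild type lung. The log2 difference of CD9KO against wild type was -0.30 (SE 0.19, limma adjusted p = 0.345) with all arrays and -0.49 (SE 0.13, adjusted p = 0.0527) without number 2. Its removal had to lower the CD9KO mean, so the second value is a description only. Tap1 had 709 on CD9KO number 2, 2.31 times the median of the other 13 arrays, which lay between 252 and 457. Psmb8 had 1751 there, and 1042 to 1612 on the others.

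Upstream of these genes, the ligands gave low signals. Of 7 interferon ligands with a probe set 3 passed the level filter, and 0 of these 3 passed limma in any comparison, also at an unadjusted p under 0.05. Ifng, the gene of interferon gamma, lay below the filter and was not tested; it had 40.5 on CD9KO number 2, against 11.7 to 21.3 on the other 13 arrays. Ifnb1, also below the filter, had 36.3 there, within the 24.5 to 39.1 of the others.

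Of 9 receptors and kinases 2 were lower in CD9KO than in wild type lungs (22.2%, where 5.51% of all genes were called) and 0 higher. Ifnar2, a chain of the type I interferon receptor, averaged 999 ± 41.2 in CD9KO lungs and 1150 ± 74.4 in wild type lungs (SD, n = 5 and 4; log2 difference -0.20, limma adjusted p = 0.0272). Ifngr2, a chain of the interferon gamma receptor, averaged 874 ± 66.1 in CD9KO lungs and 1117 ± 67.9 in wild type lungs (SD, n = 5 and 4; log2 difference -0.35, limma adjusted p = 0.0230). Both were also higher in CD151KO than in CD9KO lungs, by 0.19 and 0.26 on the log2 scale (limma adjusted p = 0.0147 and 0.0343). These were 22.2% of the list, where 10.1% of all genes were called. Both comparisons share the CD9KO lungs, so the 4 calls are not independent, and all held without CD9KO number 2. Between CD151KO and wild type 0 of the 9 passed limma, with 1 at an unadjusted p under 0.05.

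Of 39 further genes known to respond to type I interferon, 0 passed in CD151KO against wild type, with 6 at an unadjusted p under 0.05 in limma. In CD9KO lungs 2 were higher than in wild type: Ifitm2, a relative of Ifitm3, at 4489 ± 215 in CD9KO and 3798 ± 191 in wild type (SD, n = 5 and 4; log2 difference 0.24, limma adjusted p = 0.0149), and Lgals9, the gene of galectin-9, at 1074 ± 54.7 in CD9KO and 835 ± 51.9 in wild type (SD, n = 5 and 4; log2 difference 0.36, limma adjusted p = 0.0122). Between CD151KO and CD9KO 1 was higher, Ifi27 (0.17, adjusted p = 0.0174), and 3 were lower in limma, Tor3a (-0.34, adjusted p = 0.0074), Ifit1bl1 (-0.25, adjusted p = 0.0391) and Ifitm2 (-0.14, adjusted p = 0.0448; 0.0700 without CD9KO number 2). These were 5.13% and 10.3% of the list, close to the 5.51% and 10.1% over all genes.

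The smaller regulatory lists held 0 or 1 call each per comparison. Of 5 other transcription factors 1 (20.0%, where 10.1% of all genes were called), Irf2, which represses response element genes, was lower in CD151KO than in CD9KO (log2 difference -0.27, limma adjusted p = 0.0314; 0.0524 without CD9KO number 2). Of 8 inhibitors 1 (12.5%, against 5.51% of all genes), Irf2bp1, a corepressor that binds IRF2, was higher in CD9KO than in wild type (0.17, limma adjusted p = 0.0175). None of 12 nucleic acid sensors and adaptors passed limma in any comparison, with 0, 3 and 2 at an unadjusted p under 0.05 for CD151KO against wild type, CD9KO against wild type and CD151KO against CD9KO. Of 12 other genes of MHC class I presentation 1 was called in each of 2 comparisons (8.33%, against 5.51% and 10.1% of all genes). Calr was higher in CD9KO than in wild type (0.27, limma adjusted p = 0.0330; 0.0528 without CD9KO number 2), and Erap1, a peptide-trimming protease, was lower in CD151KO than in CD9KO (-0.16, adjusted p = 0.0296).

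Genes known mainly for their response to interferon gamma showed the excess on CD9KO number 2 at larger ratios. That array was the highest of 14 at 10 of the 12 tested, with a median ratio of 2.72 to the median of the other 13 arrays and a range of 1.40 to 4.68. Gbp6, another guanylate-binding protein, had 2043, against 332 to 657 on the others. Igtp and Irgm2, immunity-related GTPases, had 3791 and 2460, against 756 to 1100 and 615 to 962. Ciita, the master regulator of MHC class II genes, had 252, against 83.0 to 136, and Cd274, the gene of PD-L1, had 502, against 174 to 227. Cxcl9 and Cxcl10, chemokines induced by interferon gamma, were not at their highest there, at 91.9 and 79.0, with the highest of the others at 155 and 83.2. None of the 12 passed limma in any comparison, with 0 at an unadjusted p under 0.05 in CD151KO against wild type and in CD151KO against CD9KO and 1 in CD9KO against wild type. These genes were named after their values were seen.

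By role, the median ratio on CD9KO number 2 was 2.45 for 3 listed GTPases, 1.66 for antigen processing and 1.37 for transcription factors. The 2.45 is the ratio of Gbp2 itself, with Gbp3 at 2.58 and Mx2 at 1.08. The median was 1.26 for membrane and other antiviral proteins and 1.23 for the OAS family and exonuclease. For the IFIT proteins it was 1.18, and for the RNA sensors and kinase 1.02. Among the other MHC class I genes it was 1.20, and Nlrc5, the class I regulator, had 582 on that array, against 177 to 288 on the others. The median ratio was 1.06 for the 39 further type I interferon genes and 0.963 for receptors and kinases. Over all genes the median ratio was 0.994.

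**Figure D4:**
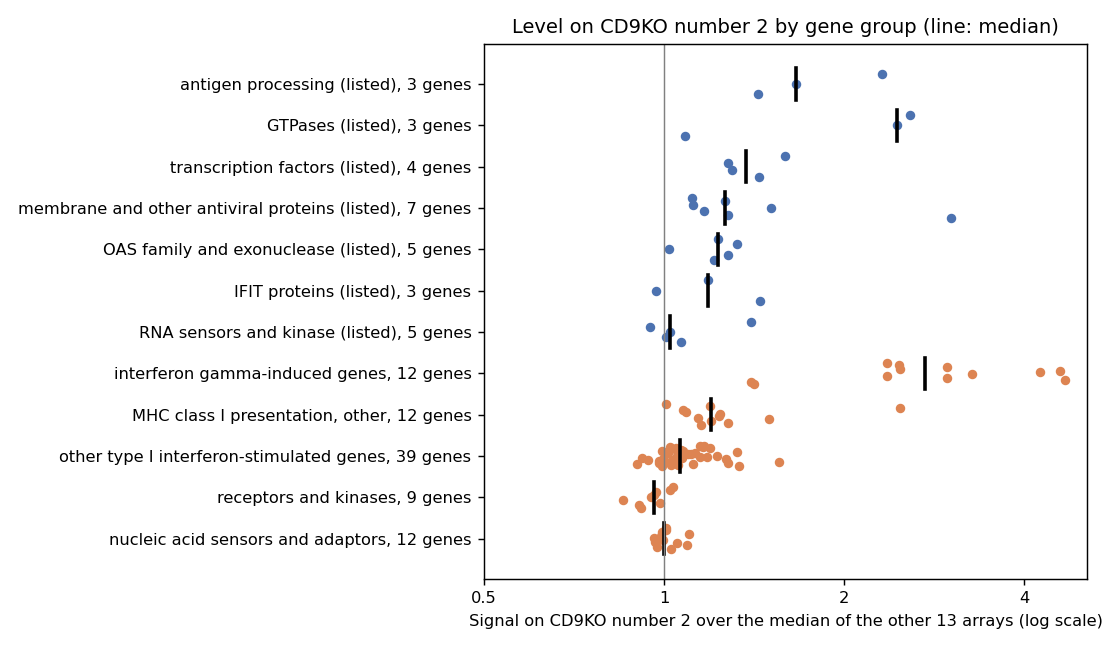
Signal on CD9KO number 2 over the median of the other 13 arrays (horizontal axis, log scale) for each gene of the listed groups (blue) and of further pathway lists (orange); points are genes and black lines medians. Interferon gamma-induced genes have a median of 2.72 and the listed GTPases 2.45, while RNA sensors, receptors and nucleic acid sensors lie near 1. The 3 listed GTPases include Mx2, at 1.08.

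The summed markers of most cell types on CD9KO number 2 lay within the range of the other arrays. Natural killer cells, which make interferon gamma, had 6 tested markers with a summed signal of 2093 on that array, the highest of the CD9KO lungs, against 794 to 2500 on the other 13 arrays. All 6 were above the median of the other 13 arrays there, with ratios of 1.02 to 1.70 and a median of 1.34, the highest median ratio of the 11 marker lists, and it was the highest array for 1 of the 6, Gzmb. T cell markers summed to 1108, against 944 to 1243, those of macrophages and monocytes to 15678, against 13537 to 17640, those of plasmacytoid dendritic cells to 2667, against 2582 to 3086, and those of B and plasma cells to 12858, against 5618 to 21991. Dendritic cell markers summed to 1128, at the top of the 889.9 to 1128 of the others. Among all genes the largest ratios on that array included Apol11b at 13.5 and Slc4a1, an erythrocyte membrane transporter, at 5.26. The part of any of these in the level of the interferon-stimulated genes was not tested.

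Between the groups, neutrophil markers moved with the comparison in which Eif2ak2 was called: all 4 tested (100%) were higher in CD151KO than in CD9KO lungs, where 10.1% of all genes were called, and the summed signal was 2957 to 10416 in CD151KO, 1385 to 1977 in CD9KO and 1959 to 5209 in wild type lungs. Their part in the Eif2ak2 difference was not tested. Of the other marker lists 1 club cell gene of 4 (25%, Scgb3a1) and 1 of 8 blood endothelial genes (12.5%, Cldn5) were higher in CD151KO than in CD9KO, and 1 of the 8 endothelial genes (12.5%, against 5.51% of all genes; Emcn) was lower in CD9KO than in wild type. The lists for alveolar type 1 and type 2 cells, macrophages and monocytes, T cells, natural killer cells, B and plasma cells, dendritic cells and plasmacytoid dendritic cells held 0 genes past limma's adjusted threshold in any comparison, with 0 to 3 per list and comparison at an unadjusted p under 0.05.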

How the data were processed

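The deposited values, made by the authors, are normalized intensities on a linear scale, 1 per probe set and array, per the labels. Per the submitters' processing notes, Affymetrix Expression Console and MAS5 were used, in roles not given in the sources used here. Groups and numbers came from the sample titles.

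Probe sets with 1 symbol in the platform annotation were kept (34945; 932 had several and 9211 none). The probe set with the highest mean represented a gene (18193 genes), and genes below the 40th percentile of mean level (signal 53.4) were left out. Values were taken as log2(signal + 16), so fold changes understate those of dim genes. Limma 3.58.1 in R 4.3.3 fitted 3 groups on all 14 arrays (eBayes with trend, two-sided, Benjamini-Hochberg over 12985 genes). The procedure was tested on simulated data with independent noise and no array set apart, and its recovery of small differences is not given here. Values per array are given for genes called, the 4 smallest p-values per comparison and listed genes within 50 genes of Cd151 or Cd9; genes described beyond these, such as those highest on CD9KO number 2, were chosen after their values were seen. The members and lists were chosen with earlier results of these data known. Alternatives changed the pseudocount, normalization, filter, probe set rule, samples, moderation, array weights and block. Promoters came from RefSeq (GRCm38.p6), and gene order from a RefSeq gene table. Figures were drawn with matplotlib 3.10.9.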

Additional observations from a re-analysis of the deposited data

Results flagged for a closer look

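Each of the 31 tested genes was examined for 1 sample far from the others of its group, by Dixon's ratio of the gap to the range, in 93 groups of values, where chance marks about 1 in 20. Of 13 groups so marked, 8 were for CD9KO number 2, always as the highest: Gbp3 at 1517.1 signal units (next in its group 672.7), Psmb8 at 1751.2 (1131.9), Psmb9 at 1216.7 (683.6), Tap1 at 708.6 (311.9), Stat2 at 163.8 (118.1), Zbp1 at 183.6 (121.2), Oas1a at 306.5 (221.7) and Bst2 at 1074 (860.8). The mean of the 31 genes on that array, 0.374 above the mean of all arrays on the log2 scale, was also far from its group. The 31 genes are not independent of each other.

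The remaining 5 were Bst2 on CD151KO number 3 (955.3, next 822.9), Ifit2 on CD9KO number 3 (472.8, next 424.5), Oasl1 on CD9KO number 1, the lowest (70.8, next 88.8), Irf7 on wild type number 1 (176.6, next 140.9), and Bst2 on wild type number 4, the lowest (819.4, next 852.2).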

How the results depend on the processing

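In CD151KO against wild type 0 listed genes were called under all 27 alternatives. The medians of the listed genes ran from -0.063 to 0.035 in that comparison and from -0.11 to 0.030 in CD9KO against wild type. Between CD151KO and CD9KO they ran from -0.040 to 0.10. All moved by less than 0.147, the SD of the arrays' means over the listed genes within groups. CD9KO number 2 enlarges that SD, so the measure cannot show that the medians were stable. Listed genes called between CD151KO and CD9KO numbered 0 with no level filter or with a gene's probe sets averaged, 2 with every probe set (Eif2ak2, Ifi35), 2 with array weights (Eif2ak2, Ifit3) and 0 to 4 when 1 array was left out; in CD9KO against wild type they numbered 2 with every probe set, 1 with array weights (Ifi35) and 0 to 1 when 1 array was left out. Same-numbered samples deviated together in 6 of 13 pairs (correlations above 0.1, range -0.13 to 0.59), among them all 3 pairs of number 4. Wild type and CD151KO number 1 had the highest correlation. In all, 6 of 14 samples, those numbered 1 and 4, correlated best with their own number. The labels name no batch, and the fit used above did not pair samples by number. Structure shared by samples numbered 1 or 4 is therefore not modelled in it. Over all features tested, the calls between the knockouts were 682 to 1939 across the 27 alternatives, against 1313 genes (10.1%) in the main fit. The counts of listed genes called are no result about the list. With the replicate block, limma called 2 listed genes between the knockouts (Eif2ak2, and Stat2 at an adjusted p of 0.0486). In CD9KO against wild type it then called 1591 genes, against 715 without the block. With probe sets averaged, Eif2ak2 in CD151KO against wild type was -0.028 on the log2 scale (adjusted p = 0.857), against 0.063. Calls among all genes were 39 with only the compared groups, 335 with array weights, 45 without both number 1 arrays and 24 to 98 without 1 array in CD151KO against wild type (55, 54 and 31 without CD151KO number 3, 4 and 5, and 60, 24 and 41 without wild type number 3, 4 and 5). In CD9KO against wild type they were 1090 with array weights, 405 without both number 1 arrays and 158 to 866 without 1 array. These included 335, 208 and 186 without CD9KO number 3, 4 and 5, and 267 and 158 without wild type number 1 and 3. With every probe set the calls there were 1555, but of 22951 probe sets and not of 12985 genes. Between the knockouts, calls among all genes were 682 to 1939 without 1 array (694 and 856 without CD151KO number 1 and 2, and 682 without CD9KO number 5). The cause of these moves was not tested. Signals near the background limit Oas3, Mx1 and the ligands.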
